A study of Mus musculus with 40 samples.

Results

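The genes described here are 38 components of the first stage of the secretory pathway in mouse, the chaperones and folding enzymes of the endoplasmic reticulum (ER) and the machinery that brings new proteins into it. They were chosen by symbol from a list, and all 38 were found among the 23812 rows of the expression table. Only Srp54a had more than 1 row (2 rows, of which the row of higher mean was used), and since it has near-identical neighbouring copies its reads may have been split between them. By role they fall into 9 HSP70 and HSP90 class chaperones with their co-chaperones, 6 lectin chaperones and protein disulfide isomerases, and Xbp1 with 4 genes of ER-associated degradation. The other roles are 5 proteins of the signal recognition particle, 10 of the translocon and its associated proteins, and 3 signal peptidase subunits.

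Proteins bound for secretion, for the plasma membrane or for granules carry a signal sequence that the signal recognition particle binds as it leaves the ribosome. The particle delivers the ribosome to the Sec61 channel, signal peptidase removes the signal, and lumenal chaperones and disulfide isomerases fold the chain, while misfolded chains are returned to the cytosol and degraded. When unfolded proteins accumulate, the sensors IRE1, PERK and ATF6 start the unfolded protein response, in which spliced Xbp1 and cleaved ATF6 raise the transcription of many of these genes. Mast cells fill their granules with proteases that all enter through this route.

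RNA sequencing covered 40 libraries in 10 groups of 4. Ear skin came from MrgprdDTR mice and MrgprdCre mice. Both carry the Mrgprdtm1.1(cre)And allele of the B6.129S1(Cg) strain, which places Cre in the Mrgprd locus of sensory neurons, and MrgprdDTR mice carry in addition the Gt(ROSA)26Sortm1(HBEGF)Awai allele from C57BL/6, a diphtheria toxin receptor that Cre switches on. Ear skin also came from C57BL/6J mice given 50 mM β-alanine, an agonist of the MrgprD receptor, or PBS on the ear on each of 2 days. Both genotypes of the ablation experiment also provided sorted mast cells. Other mast cells were grown from the peritoneum of C57BL/6J mice and then kept for 6 h with 4 mM glutamate or its vehicle, or for 48 h with 50 uM NS102, a glutamate receptor antagonist, or its vehicle. Both 6 h cultures were in a Tyrode's buffer free of glutamate. The ablation genotypes are called DTR and Cre below. Toxin was given for 3 to 4 weeks to both genotypes according to the protocol, but the treatment labels list toxin and an acetone and olive oil vehicle for DTR samples and the vehicle alone for Cre samples, so whether Cre mice received toxin is unclear. Labels call the skin epidermal, whereas the design text speaks of whole ear. Ages were not given, and where labels do not tie replicates to separate animals or cultures, p-values measure the spread between libraries that may be technical.

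Values are FPKM, fragments scaled to transcript length and to library size, and the depth behind them is unknown. Mrgprd itself was at most 0.0241 FPKM in any skin library and could not serve as a check of the ablation. Mast cell marker genes (8 listed) summed to 17802 to 29083 FPKM in DTR and 9478 to 13998 FPKM in Cre sorted cells. By limma 5 of the 8 were higher in DTR cells and 1 lower. Fcer1a and Hdc averaged 289 and 291 FPKM in DTR cells, and 573 and 381 FPKM in Cre cells. Across the cultured groups the mast cell markers summed to 65646 to 94093 FPKM. There the keratinocyte markers Krt5, Krt14, Krt1, Dsp and Trp63 were listed at 0 in all libraries. Replicate libraries correlated at 0.984 to 0.998 in skin and culture, but at 0.885 to 0.979 in sorted cells. Within sorted DTR cells, libraries 1 and 2 exceeded libraries 3 and 4 for all 38 members. These libraries also differed in their summed FPKM over all genes, at 191722 and 185388 against 117574 and 126017. As a share of that sum the members took 0.596% to 0.608% in the 4 DTR libraries and 0.458% to 0.539% in the 4 Cre libraries. In bulk RNA of this kind fewer cells of a type and less RNA per cell cannot be told apart.

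Every member averaged more than 1 FPKM in every group except Hyou1 in sorted Cre cells, at 0.716 FPKM, and the order of their levels differed between skin and mast cells. In skin the lowest member mean was 8.17 FPKM (Sdf2l1, β-alanine) and the highest 233 FPKM (Calr, PBS). Calr is calreticulin, a lectin chaperone that also stores calcium in the ER lumen. In cultured cells the leading member in every group was Ssr4, a subunit of the translocon-associated protein complex, at 389.9 ± 3.57 FPKM with glutamate, 261 ± 17.3 FPKM with 6 h vehicle, 264 ± 26.9 FPKM with NS102 and 361 ± 19.8 FPKM with 48 h vehicle (SD, n = 4 each). Ssr4 stood at 104 ± 1.42 FPKM in DTR skin and 119 ± 8.76 FPKM in Cre skin. The signal peptidase subunit Spcs3 was at 104 ± 9.55 FPKM with NS102 and 205 ± 16.3 FPKM with 48 h vehicle, but at 19.6 ± 1.65 FPKM in β-alanine skin and 20.7 ± 0.935 FPKM in PBS skin. Conversely Sec63, a J-domain partner of the Sec61 channel, was at 1.54 ± 0.197 FPKM with glutamate and 1.61 ± 0.121 FPKM with 6 h vehicle, and at 19.2 FPKM in DTR and in Cre skin. These levels across kinds of sample are descriptions and were not tested.

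The promoters of several members hold the binding elements through which the unfolded protein response acts, and these are shown because the treatments below split the genes that carry them. RefSeq promoter windows (GRCm38.p6, 250 bases before to 50 after the annotated start) were matched for 31 of the 38 members. Both strands were searched for the ER stress response element ERSE (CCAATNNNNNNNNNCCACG), for ERSE-II (ATTGGNCCACG) and for the core TGACGTGG bound by XBP1. All of them share CCACG, read as CGTGG on the other strand, and ERSE and ERSE-II also share CCAAT, read as ATTGG on the other strand. ERSE was found in 8 member promoters (25.8%) and in 0.119% of all 32851 promoters, ERSE-II in 2 members (6.45%) and in 0.0365% of all promoters, and the XBP1 core in 0 members and 0.676% of all promoters. A match is a description of letters and not of a bound site. Below, each element is given with the bases around it, on the gene's strand from 5′ to 3′, with the fixed letters of the element in capitals.
Hspa5 (chr2:34772010-34772058, plus strand): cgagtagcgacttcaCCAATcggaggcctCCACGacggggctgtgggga
Hsp90b1, distal element (chr10:86705623-86705671, minus strand): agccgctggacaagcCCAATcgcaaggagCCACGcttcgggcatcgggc
Hsp90b1, proximal element (chr10:86705518-86705566, minus strand): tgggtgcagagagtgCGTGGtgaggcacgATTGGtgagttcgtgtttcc
Calr (chr8:84847060-84847108, minus strand): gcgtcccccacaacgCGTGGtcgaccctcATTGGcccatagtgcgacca
Canx (chr11:50325785-50325833, minus strand): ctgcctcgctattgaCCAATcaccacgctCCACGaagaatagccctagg
Pdia6 (chr12:17266476-17266524, plus strand): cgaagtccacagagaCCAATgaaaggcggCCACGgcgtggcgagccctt
Syvn1 (chr19:6046517-6046565, plus strand): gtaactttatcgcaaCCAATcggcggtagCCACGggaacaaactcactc
Herpud1, ERSE-II (chr8:94386362-94386402, plus strand): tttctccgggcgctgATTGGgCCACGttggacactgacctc
In Calr and in the proximal element of Hsp90b1 the ERSE lies on the other strand, so that it reads CGTGG then ATTGG. The element lies 65 to 47 bases before the start of Hspa5 and 44 to 26 bases before that of Syvn1. Dnajc3 and Creld2 carry an ERSE as well, and Dnajb11 an ERSE-II just inside the transcript.

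The plot of all members by comparison shows 30 members called with glutamate, 30 with NS102, 7 in sorted cells, 10 in DTR skin and 0 with β-alanine. For the same comparisons in turn, the shares of all genes called in either direction were 79.3%, 70.5%, 35.8%, 13.6% and 0.212%. Fewer members were called in sorted cells than in DTR skin, whereas the share of all genes was larger in sorted cells. Changes are differences of means on the log2(FPKM + 1) scale, which understates the change of weakly expressed genes, and a gene is said to have risen or fallen where limma's adjusted p (Benjamini-Hochberg over all genes tested) was under 0.05.

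**Figure D1:**
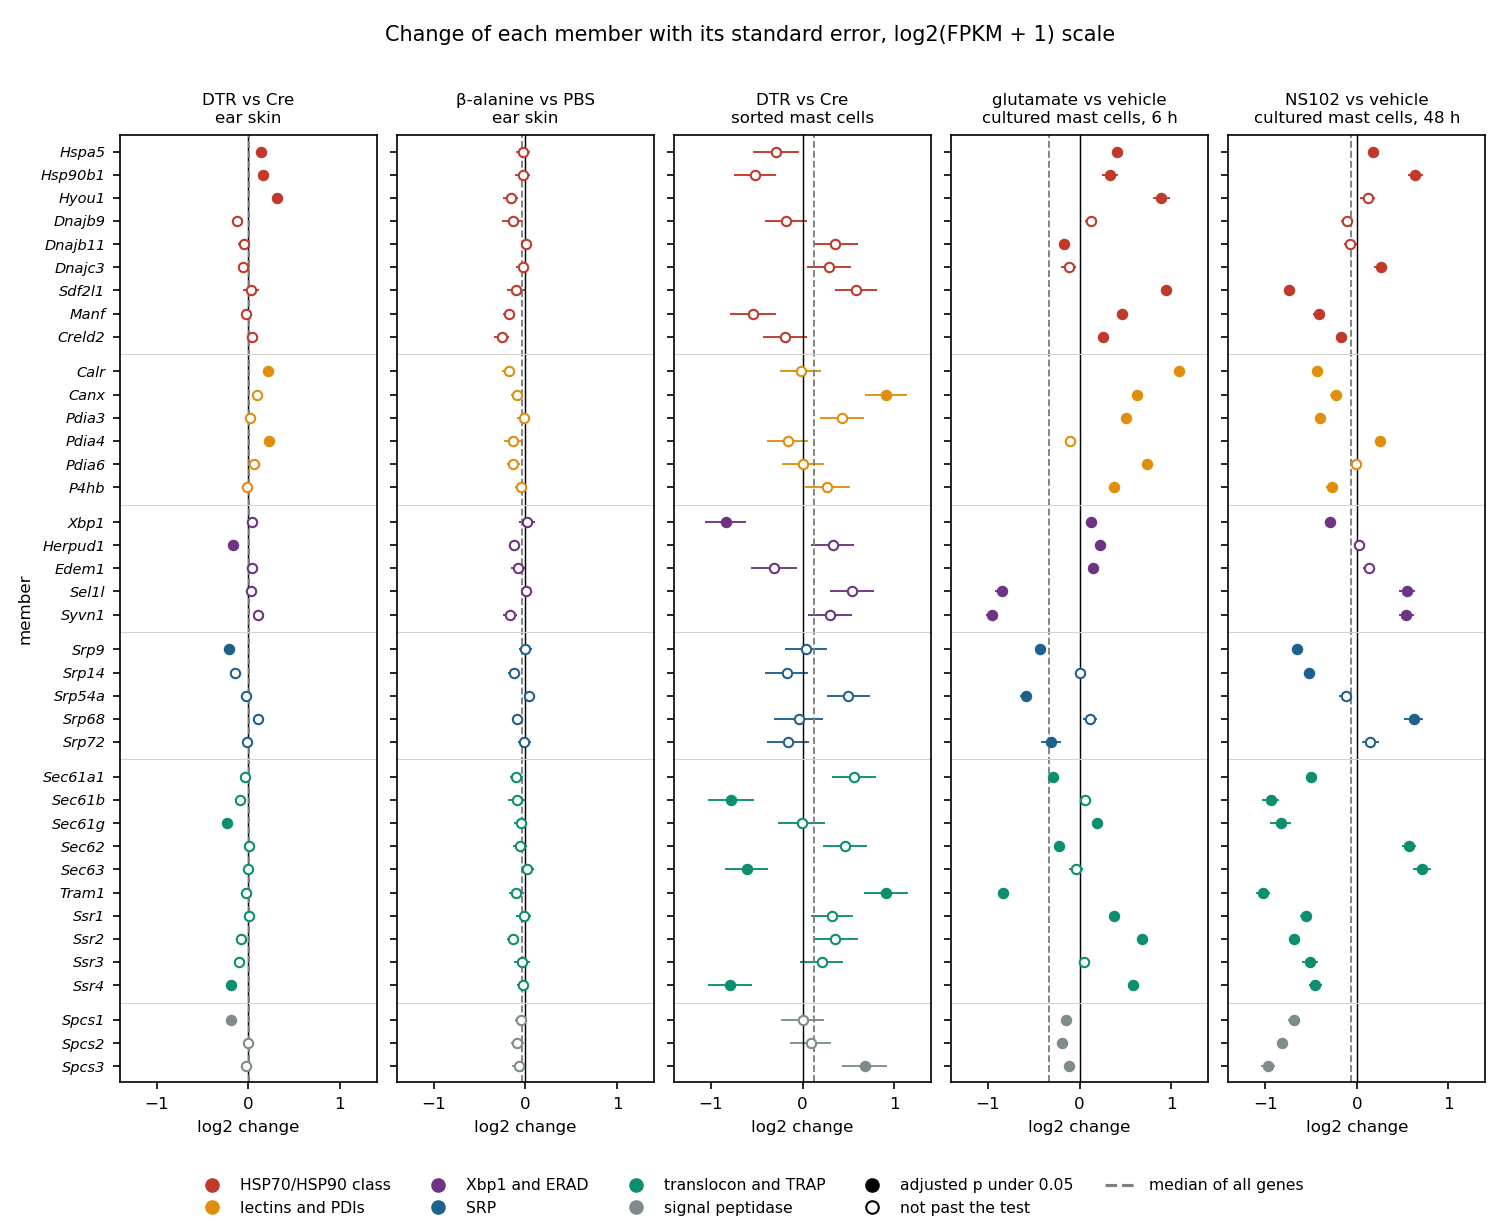
Log2 change of each member (rows, by role) in the 5 comparisons (panels), with its standard error. Filled points passed the test, open points did not, and the dashed line is the median of all genes tested, which lies at -0.33 for glutamate. Filled points number 10, 0, 7, 30 and 30 from left to right, and Hyou1 was below the expression filter in sorted cells.

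The glutamate comparison asked what extracellular glutamate does to cultured mast cells within 6 h. Of the 38 members 18 rose and 12 fell, while 16.9% of the 8297 genes tested rose and 62.4% fell. The median log2 change was 0.12 over the members and -0.33 over all genes. Relative to that downward shift 33 of 38 members lay above the median gene. After each library was centred on its median, 32 members were higher and 4 lower, against 44.6% and 31.5% of all genes, and the 4 lower were Sel1l, Syvn1, Srp54a and Tram1. Libraries did not overlap for 16 members above and 10 below, against 15.2% and 59.1% of all genes. The other 8 members changed by -0.12 (Dnajc3) to 0.12 (Dnajb9). The calls of Edem1 and Srp72 were lost when single libraries were left out. The group sum of all members was 2479 ± 39.5 FPKM with glutamate and 2115 ± 20.5 FPKM with vehicle (SD, n = 4 each). As shares of summed FPKM over all genes these were 0.575% and 0.552%.

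The lumenal folding machinery made up most of the rise. Calr (mm9, chromosome 8, 87365986 to 87370830) had 152, 151, 149 and 144 FPKM with glutamate, against 68.8, 71.1, 69.1 and 70.6 FPKM with vehicle, a log2 change of 1.08 (SE 0.0323, limma adjusted p = 1.78e-11). Every glutamate library was about double every vehicle library, with no overlap. Among its partners Canx, calnexin, the membrane-bound lectin chaperone, had 53.1, 53.3, 53.9 and 51.7 FPKM with glutamate, against 34.6, 36, 32.6 and 32.8 FPKM with vehicle (log2 change 0.63). Pdia6, a disulfide isomerase, had 76.9, 76.7, 77.7 and 70.2 FPKM with glutamate, against 45.7, 47.4, 43.9 and 42.5 FPKM with vehicle (log2 change 0.74). For both genes all glutamate libraries lay above all vehicle libraries. Pdia3, the isomerase that works with calreticulin and calnexin, rose by 0.51, and P4hb, the classical protein disulfide isomerase, by 0.37. Pdia4 did not pass, with 29.5, 30.5, 27.7 and 26.9 FPKM with glutamate, against 31.8, 31.9, 29.1 and 31 FPKM with vehicle (log2 change -0.11, limma adjusted p = 0.0624), and its direction was the opposite after centring, where it was called higher.

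Of the 9 HSP70 and HSP90 class genes 6 rose, 1 fell (Dnajb11, by 0.17) and 2 did not pass. Sdf2l1, a stabiliser of chaperone and J-protein complexes, had 70.6, 76.0, 80 and 79.3 FPKM with glutamate, against 37.5, 40.1, 41.2 and 39.1 FPKM with vehicle (log2 change 0.94, SE 0.0463, limma adjusted p = 1.16e-09). Hspa5, the HSP70 of the lumen known as BiP (mm9, chromosome 2, 34627609 to 34632049), had 66.6, 71.9, 69.5 and 60.1 FPKM with glutamate, against 53.0, 52.8, 45.5 and 48.8 FPKM with vehicle (log2 change 0.41, limma adjusted p = 3.08e-05). For these genes the groups did not overlap. Hsp90b1, the lumenal HSP90 known as GRP94, had 54.9, 57.0, 48.2 and 42.3 FPKM with glutamate, against 44.3, 42.3, 34.7 and 38.3 FPKM with vehicle, and although it rose by 0.33 its libraries overlapped. Manf, a secreted ER stress factor, and Creld2, another stress-induced lumenal protein, rose by 0.46 and 0.26. Hyou1, the large nucleotide exchange factor of BiP, rose by 0.89 on the log2(FPKM + 1) scale, which understates it at this low level, with 2.93 ± 0.319 FPKM with glutamate and 1.12 ± 0.252 FPKM with vehicle.

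The degradation genes split. Syvn1 and Sel1l, which together form the core of the ubiquitin ligase that extracts misfolded lumenal proteins, both fell. Syvn1 (mm9, chromosome 19, 6046575 to 6053718) had 2.84, 2.90, 2.52 and 2.46 FPKM with glutamate, against 5.90, 6.26, 6.39 and 6.02 FPKM with vehicle (log2 change -0.96, SE 0.0668, limma adjusted p = 2.57e-08). Sel1l had 5.31, 5.52, 5.54 and 4.94 FPKM with glutamate, against 11.6, 10.9, 9.30 and 9.84 FPKM with vehicle (log2 change -0.85). In both genes all glutamate libraries lay far below all vehicle libraries, and both stayed lower after median centring. The other degradation genes rose, by smaller amounts. Herpud1, which recruits that ligase, had 84.6, 91.1, 88.8 and 80.6 FPKM with glutamate, against 74.8, 74.2, 71.7 and 75.0 FPKM with vehicle (log2 change 0.22). Edem1, a mannosidase-like degradation factor, rose by 0.15. Xbp1, whose table row does not separate the spliced from the unspliced form, had 105, 106, 106 and 104 FPKM with glutamate, against 96.5, 96.7, 96.7 and 96.4 FPKM with vehicle (log2 change 0.12, limma adjusted p = 0.00143). Those groups were each so tight that they did not overlap despite the small change.

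At the entry to the ER the picture was mixed. Of the 10 translocon genes 4 rose, 3 fell and 3 did not pass. The risers were Sec61g, the gamma subunit of the channel (0.19), and the translocon-associated proteins Ssr1 (0.38), Ssr2 (0.68) and Ssr4 (0.58). Ssr2 had 71.9, 77.9, 76.3 and 75.3 FPKM with glutamate, against 47.4, 45.2, 47.5 and 46.1 FPKM with vehicle. Ssr4 had 390.5, 387, 388 and 395 FPKM with glutamate, against 246, 247, 280.3 and 271 FPKM with vehicle. Neither gene's groups overlapped. Tram1, a membrane protein beside the channel that helps signal sequences insert, had 42.3, 43.9, 50.5 and 44.1 FPKM with glutamate, against 75.1, 84.0, 82.1 and 84.5 FPKM with vehicle (log2 change -0.84, SE 0.0555, limma adjusted p = 1.61e-08). The channel's main subunit Sec61a1 had 46.0, 47.1, 48.4 and 48.5 FPKM with glutamate, against 58.6, 60.9, 55.0 and 58.0 FPKM with vehicle. It fell by 0.29, but was called higher after median centring. Sec61b, the beta subunit, did not pass, with 144, 146, 151 and 154 FPKM with glutamate, against 135, 134, 154 and 148 FPKM with vehicle (log2 change 0.06).

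None of the 5 signal recognition particle genes rose, and 3 fell. Srp9, which pairs with Srp14 on the particle's Alu domain, had 55.0, 53.5, 60.4 and 58.7 FPKM with glutamate, against 74.8, 74.6, 77.8 and 79.9 FPKM with vehicle (log2 change -0.43). Srp54a, the subunit that grips the signal sequence, had 4.49, 4.64, 4.45 and 3.92 FPKM with glutamate, against 6.99, 7.30, 7.05 and 6.96 FPKM with vehicle (log2 change -0.59), and Srp72 fell by 0.31. Both Srp9 and Srp54a were lower in every glutamate library. Srp14 did not pass, at 148 ± 4.13 FPKM with glutamate and 149 ± 2.98 FPKM with vehicle. All 3 signal peptidase subunits fell, by 0.15, 0.19 and 0.12 for Spcs1, Spcs2 and Spcs3, but each was above the median gene and was called higher after median centring. The fall of Srp9 and Srp72 was also lost under that scaling, and that of Sec62 and Dnajb11 turned to a rise.

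The neighbouring pathway genes moved in both directions. Of 79 tested genes in 6 further lists (sensors and effectors of the unfolded protein response, other degradation genes, other foldases, oligosaccharyl transferase, other entry factors, and COPII coat with cargo receptors) 27 rose and 39 fell, with a median of -0.10. Trib3, a pseudokinase induced downstream of ATF4, was at 5.89 ± 0.724 FPKM with glutamate and 1.57 ± 0.114 FPKM with vehicle (SD, n = 4 each, log2 change 1.42). In the same list Ppp1r15a, the stress-induced phosphatase subunit GADD34, fell by 1.06 and Mbtps1, the protease that cleaves ATF6, by 1.08. Rpn2 and Ddost of oligosaccharyl transferase, which attaches glycans to entering chains, rose by 0.89 and 0.74, and the cargo receptor Tmed10 by 0.87. Mast cell markers moved with these genes: 6 of 8 rose and 2 fell, and their sum was 92169.8 to 94093 FPKM with glutamate and 67602 to 70236 FPKM with vehicle. Summed FPKM over all genes was 429502 to 432984 with glutamate and 378212 to 389859 with vehicle. The part of either in the result was not tested.

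NS102 for 48 h gave a different pattern. Of the 38 members 9 rose and 21 fell, while 30.8% of the 8373 genes tested rose and 39.7% fell. The median log2 change was -0.25 over the members and -0.06 over all genes. The members summed to 2123 ± 114 FPKM with NS102 and 2937 ± 115 FPKM with vehicle (SD, n = 4 each), so that the shares of summed FPKM were 0.575% and 0.725%. Libraries did not overlap for 9 members above and 21 below, against 27.4% and 36.9% of all genes, and the other 8 members changed by -0.12 (Srp54a) to 0.15 (Srp72). The libraries within the NS102 group were not alike. Libraries 1 and 2 both exceeded 3 and 4 for 20 members, while 11 members had them both below. Such splits were also seen in other groups, with 16 and 6 members in the 6 h vehicle and 10 and 12 with glutamate. In the 48 h vehicle they were 6 and 1.

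The entry machinery carried the fall. All 10 translocon genes changed, 8 of them downward, and all 3 signal peptidase subunits fell. Tram1 (mm9, chromosome 1, 13554782 to 13579945) had 64.8, 69.4, 60.2 and 56.4 FPKM with NS102, against 131, 134, 136 and 113 FPKM with vehicle (log2 change -1.02, SE 0.0750, limma adjusted p = 2.60e-07). Sec61b had 144, 143, 114 and 111 FPKM with NS102, against 225, 257, 262 and 239 FPKM with vehicle (log2 change -0.94). In both genes every NS102 library was well below every vehicle library, and in Sec61b the NS102 libraries 1 and 2 stood above 3 and 4. Sec61a1 had 44.1, 46.2, 45.9 and 42.7 FPKM with NS102, against 67.9, 64.6, 64.5 and 58.0 FPKM with vehicle (log2 change -0.50), and Sec61g fell by 0.83. The 4 translocon-associated proteins fell by 0.45 to 0.68. Ssr2 had 54.7, 54.5, 49.7 and 49.9 FPKM with NS102, against 79.7, 90.7, 86.8 and 80.8 FPKM with vehicle, again without overlap.

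Spcs3, which belongs to the signal peptidase core, had 112, 113, 98.9 and 93.5 FPKM with NS102, against 211, 213, 214 and 180.2 FPKM with vehicle (log2 change -0.97, limma adjusted p = 4.07e-07). Spcs2 had 51.6, 50.1, 45.5 and 44.6 FPKM with NS102, against 82.7, 85.3, 89.9 and 81.1 FPKM with vehicle (log2 change -0.81), and Spcs1 fell by 0.68. All NS102 libraries were below all vehicle libraries for each subunit. In the signal recognition particle Srp9 had 76.9, 79.5, 71.9 and 69.4 FPKM with NS102, against 114, 118, 122 and 115 FPKM with vehicle (log2 change -0.65), and its partner Srp14 fell by 0.52. Srp68, which with Srp72 forms the particle's large heterodimer, rose instead, with 10.1, 10, 13.1 and 13.5 FPKM with NS102, against 7.64, 6.47, 7.61 and 7.06 FPKM with vehicle (log2 change 0.62). The other 2 translocon genes also rose. Sec62, an accessory of the channel for short and post-translational clients, had 12.3, 12.4, 14.3 and 14.9 FPKM with NS102, against 8.97, 8.25, 8.43 and 9.26 FPKM with vehicle (log2 change 0.57). Its partner Sec63 was at 3.64 ± 0.663 FPKM with NS102 and 1.82 ± 0.147 FPKM with vehicle (log2 change 0.71), and NS102 libraries 3 and 4 were the higher pair for Srp68, Sec62 and Sec63.

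The degradation ligase rose with NS102. Sel1l had 11.4, 11.5, 13.2 and 11.9 FPKM with NS102, against 9.36, 7.82, 7.53 and 6.94 FPKM with vehicle (log2 change 0.55, SE 0.0839, limma adjusted p = 8.99e-05). Syvn1 had 5.85, 5.84, 6.63 and 6.99 FPKM with NS102, against 4.60, 3.78, 3.84 and 3.89 FPKM with vehicle (log2 change 0.54). Neither gene's groups overlapped. Herpud1 did not pass, with 77.1, 75.7, 79.0 and 76.0 FPKM with NS102, against 80.6, 74.7, 77.3 and 71.5 FPKM with vehicle. Xbp1 had 110.2, 113, 106 and 101 FPKM with NS102, against 139, 131, 132 and 123 FPKM with vehicle (log2 change -0.29, limma adjusted p = 4.35e-04), but after quantile normalization its change was 0.01.

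Among the chaperones the direction differed by gene. Hsp90b1 had 51.6, 53.8, 63.3 and 63.5 FPKM with NS102, against 41.4, 33.2, 38.3 and 35 FPKM with vehicle (log2 change 0.64, SE 0.0844, limma adjusted p = 2.83e-05), and no library overlapped. Hspa5 had 96.9, 95.6, 103 and 101 FPKM with NS102, against 93.5, 84.9, 91.7 and 79.3 FPKM with vehicle, and rose by 0.18. That call and the one of Dnajc3 below were lost when NS102 libraries 3 and 4 were left out together, a choice made after seeing the data. Pdia4 had 53.0, 51.0, 53.3 and 49.2 FPKM with NS102, against 46.3, 42.8, 43.1 and 41.1 FPKM with vehicle (log2 change 0.25), and Dnajc3, a J-protein that also restrains PERK, rose by 0.26. Sdf2l1 fell, with 81.2, 77.1, 71.0 and 69.0 FPKM with NS102, against 123, 131, 127 and 121 FPKM with vehicle (log2 change -0.74). Calr had 63.1, 63.5, 57.9 and 58.8 FPKM with NS102, against 82.2, 84.6, 84.7 and 78.0 FPKM with vehicle (log2 change -0.43). Manf, Pdia3 and P4hb fell by 0.41, 0.40 and 0.27, and Canx and Creld2 by 0.23 and 0.17. Pdia6 did not pass, at 58.0 ± 2.45 FPKM with NS102 and 58.3 ± 2.28 FPKM with vehicle (SD, n = 4 each). The calls of Canx, P4hb, Creld2 and Ssr4 were lost under quantile normalization.

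**Figure D2:**
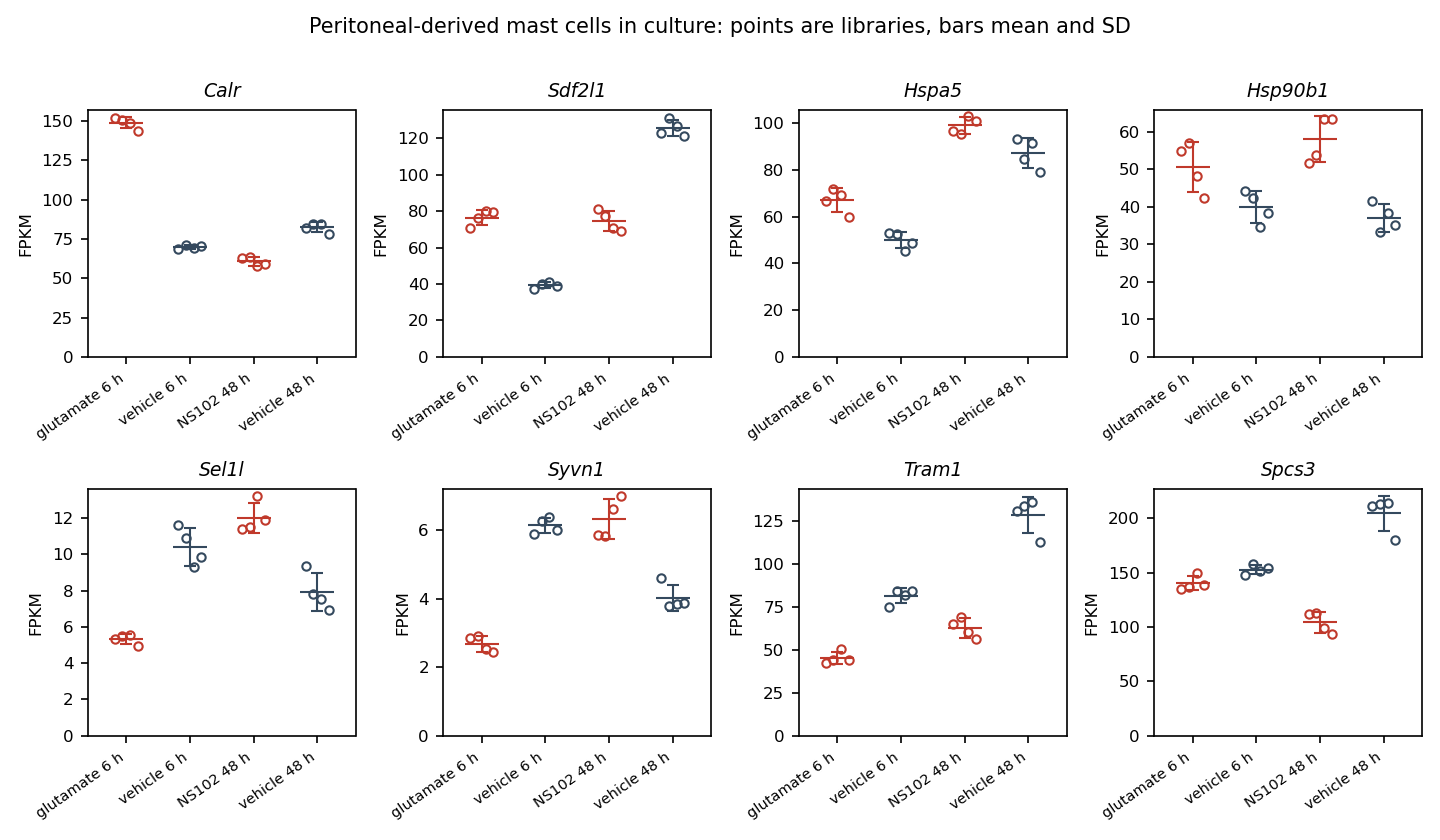
FPKM (vertical axes, from 0) of 8 members in each of the 4 libraries per cultured group, with mean and SD; each treated group stands left of its own vehicle. Calr and Sdf2l1 were higher with glutamate and lower with NS102, Sel1l and Syvn1 the reverse, and Tram1 and Spcs3 were lower with both, though Spcs3 was called higher with glutamate after median centring.

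Of 78 tested genes in the further pathway lists 22 rose and 31 fell with NS102 (median -0.09). The sensors and effectors of the unfolded protein response were mostly among the risers, with 8 of 12 up, 1 down and a median of 0.50. Atf4, the transcription factor translated when PERK or other eIF2α kinases are active, was at 12.6 ± 2.82 FPKM with NS102 and 3.84 ± 0.142 FPKM with vehicle (SD, n = 4 each, log2 change 1.47). Creb3l1, an ATF6-like membrane-bound factor, was at 11.5 ± 1.63 FPKM with NS102 and 3.43 ± 0.530 FPKM with vehicle (log2 change 1.49). Of 11 oligosaccharyl transferase and glycan trimming genes 1 rose and 7 fell, among them Ddost (-0.88) and Ostc (-0.93). Sec11c, a catalytic signal peptidase subunit, was at 284 ± 19.9 FPKM with NS102 and 503 ± 29 FPKM with vehicle (log2 change -0.82). Mast cell markers summed to 69731 to 82245 FPKM with NS102 and 65646 to 68321 FPKM with vehicle, with 5 of 8 higher and 2 lower, and their part in the result was not tested.

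The change with NS102 moved with transcript length. The members that rose had a median transcript length of 3159 bases and those that fell 1108 bases, and over all genes tested log2 change and length correlated at a Spearman coefficient of 0.335, given as a description. When the trend with length over all genes was removed, 25 of the 30 calls were kept and those of Hspa5, Manf, Xbp1, Dnajc3 and Creld2 were lost. The part of length in the other changes was not tested further.

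**Figure D3:**
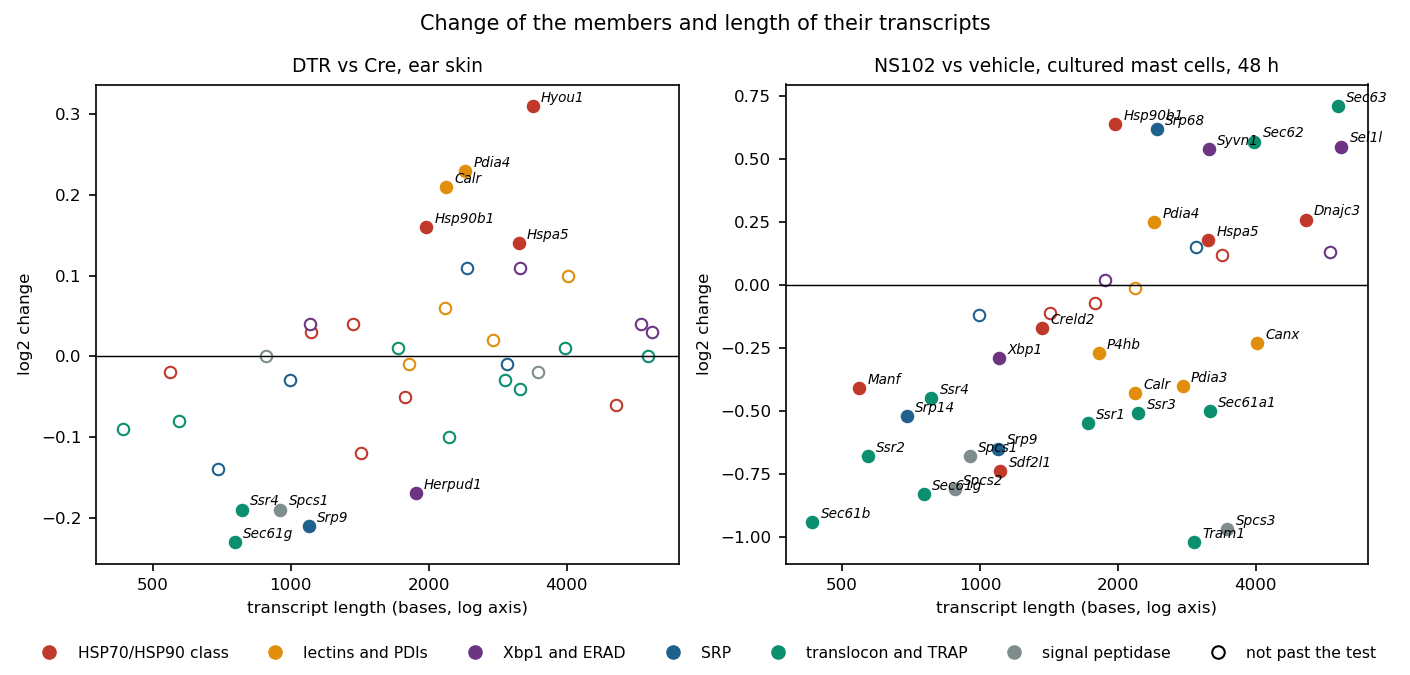
Log2 change (vertical axis) of each member against the length of its transcript in bases (log axis), for DTR against Cre skin (left) and NS102 against 48 h vehicle (right). Called members, filled and named, had median lengths of 2399 bases (higher) and 949 bases (lower) in skin, and of 3159 and 1108 bases with NS102.

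The cultured comparisons have separate vehicle groups, and their calls are set side by side here as a description, without a test. Of the 38 members 12 rose with glutamate and fell with NS102, as did 8.58% of the 7865 genes tested in both: Sdf2l1, Manf, Creld2, Calr, Canx, Pdia3, P4hb, Xbp1, Sec61g, Ssr1, Ssr2 and Ssr4. In the other direction Sel1l, Syvn1 and Sec62 fell with glutamate and rose with NS102, as did 20.1% of genes. Sec62 was called higher with glutamate after median centring (0.19). All shares of genes given here come from fits without centring. With glutamate 16.9% of all genes were higher in that fit and 44.6% after centring. Hspa5 and Hsp90b1 rose in both (3.95% of genes). Srp9, Sec61a1, Tram1, Spcs1, Spcs2 and Spcs3 fell in both (23.8% of genes), of which only Tram1 was lower in both after median centring. Dnajb9, a J-protein of the lumen, passed in neither. Exposure lasted 6 h in one comparison and 48 h in the other and the media differed, so the difference between the changes was not tested. The vehicle groups also stood apart, with Spcs3 at 153 ± 4.24 FPKM after 6 h and 205 ± 16.3 FPKM after 48 h, and Sdf2l1 at 39.5 ± 1.57 and 125 ± 4.60 FPKM.

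**Figure D4:**
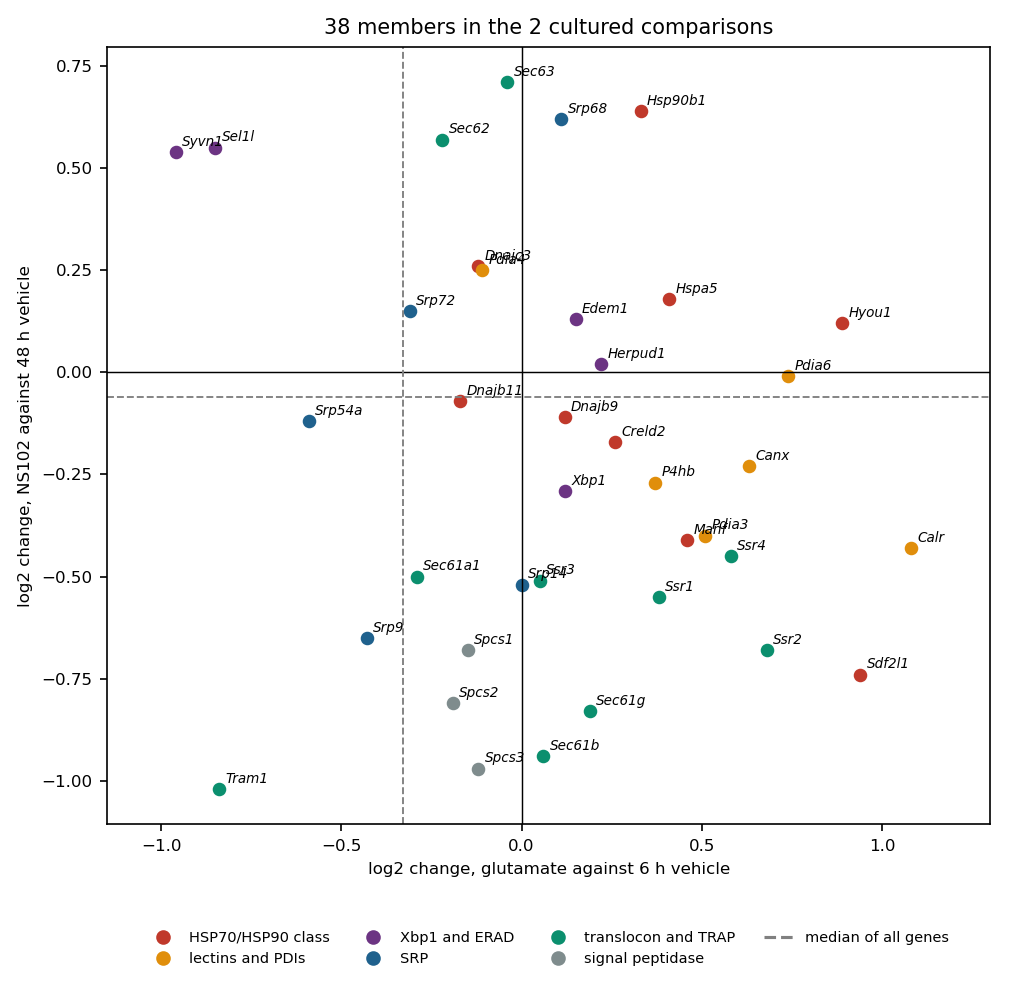
Log2 change of the 38 members with glutamate (horizontal axis) and with NS102 (vertical axis), coloured by role; dashed lines are the medians of all genes, -0.33 and -0.06. The lower right quadrant holds most lectin chaperones, disulfide isomerases and translocon-associated proteins. Syvn1 and Sel1l lie furthest left in the upper left quadrant, which also holds Sec62 and other members nearer the centre.

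Members with an ERSE or ERSE-II in their promoter window did not move as 1 block. With glutamate 7 of these 10 genes rose and 2 fell (median 0.30), and of the 21 with neither element 8 rose and 7 fell (median 0.05). Of all genes 16.9% rose and 62.4% fell. After median centring Syvn1 was lower (-0.55) and all other genes with an element were higher, as were most members without one. Of all genes 44.6% were then higher and 31.5% lower. With NS102 4 rose and 3 fell of the 10, and 4 rose and 13 fell of the 21 (median -0.40), while 30.8% of all genes rose and 39.7% fell. Syvn1, with the element printed above, fell with glutamate, whereas Calr, Canx, Pdia6, Hspa5 and Hsp90b1 rose. These counts are descriptions without a test.

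In sorted skin mast cells the comparison asked how the ablation of MrgprD neurons bears on mast cells themselves, and few members passed. Hyou1 was below the expression filter, with 0.855 to 1.51 FPKM in DTR cells and 0.279 to 0.945 FPKM in Cre cells. Of the other 37 members 3 rose and 4 fell, while 18.9% of the 8871 genes tested rose and 16.9% fell. The median log2 change was 0.04 over the members and 0.13 over all genes. Replicates were far more scattered here, with standard errors of 0.221 to 0.267 against at most 0.114 in the cultured comparisons, so that differences of the size seen in culture could be missed.

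Canx (mm9, chromosome 11, 50107458 to 50139175) had 41.2, 41.1, 28.8 and 27.5 FPKM in DTR cells, against 15.3, 18.6, 17.2 and 19.6 FPKM in Cre cells, a log2 change of 0.91 (SE 0.225, limma adjusted p = 0.00342). Tram1 had 68.0, 67.1, 44.1 and 49.7 FPKM in DTR cells, against 22.9, 28.6, 27.3 and 41.7 FPKM in Cre cells (log2 change 0.91). Both genes were higher in all DTR libraries. Spcs3 had 21.6, 22.9, 14.3 and 15.1 FPKM in DTR cells, against 12.2, 9.18, 8.51 and 14.9 FPKM in Cre cells (log2 change 0.68, limma adjusted p = 0.0362), and the groups overlapped through DTR library 3 and Cre library 4. Xbp1 fell, with 28.4, 28.7, 17.8 and 20.2 FPKM in DTR cells, against 45.3, 40.5, 37.3 and 47.6 FPKM in Cre cells (log2 change -0.84, SE 0.227, limma adjusted p = 0.00671). Ssr4 had 58.0, 59.7, 34.1 and 35.7 FPKM in DTR cells, against 79.7, 93.1, 70.4 and 75.4 FPKM in Cre cells (log2 change -0.79). Every DTR library was below every Cre library for both. Sec61b had 55.7, 45.8, 29.5 and 32.2 FPKM in DTR cells, against 72.4, 58.8, 55.7 and 94.3 FPKM in Cre cells (log2 change -0.78), with DTR library 1 level with Cre library 3, and Sec63 fell by 0.61.

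**Figure D5:**
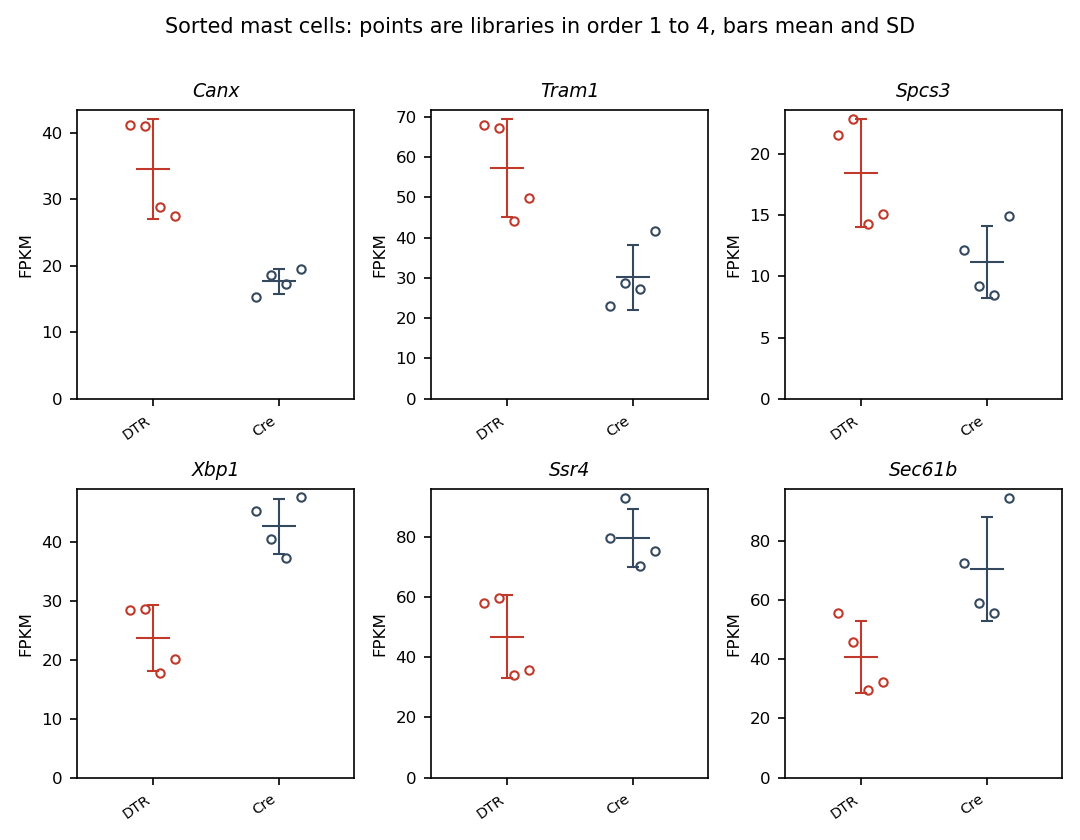
FPKM (vertical axes, from 0) of the 6 called members with at least 5 FPKM in sorted mast cells, DTR left and Cre right, with mean and SD. DTR libraries 1 and 2 lie above 3 and 4 in every panel, and only Spcs3 and Sec61b have groups that overlap or touch.

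Canx, Tram1 and Xbp1 kept their calls whichever library was left out. The call of Spcs3 was lost in 5 of 8 such fits, that of Sec63 in 7, and those of Ssr4 and Sec61b in 2 each, among them the fit without DTR library 4, after which 1 member was lower. Other members went without a call: Hspa5 had 63.8, 52.1, 31.7 and 35.6 FPKM in DTR cells, against 47.3, 53.0, 45.6 and 75.6 FPKM in Cre cells, with wide overlap. Hsp90b1 had 38.4, 37.9, 22.7 and 27.8 FPKM in DTR cells, against 48.2, 46.3, 41.5 and 44.1 FPKM in Cre cells, all DTR libraries being lower (log2 change -0.52, limma adjusted p = 0.0784). Calr had 24.1, 23.4, 19.7 and 17.3 FPKM in DTR cells, against 17, 21.4, 24.1 and 22.8 FPKM in Cre cells. Sec61a1 had 41.4, 37.4, 27 and 25.3 FPKM in DTR cells, against 24.5, 20.7, 16.1 and 25.7 FPKM in Cre cells (log2 change 0.56, limma adjusted p = 0.0728). Pdia4 and Herpud1 changed by -0.16 and 0.33, within the spread of the libraries. The 30 members without a call changed by -0.54 (Manf) to 0.58 (Sdf2l1). Libraries did not overlap for 4 members above and 5 below, against 17.3% and 16.2% of all genes. Scaling mattered, since 9 members were higher and 6 lower after median centring, against 26.1% and 21.5% of all genes, and 14 were higher and 6 lower after quantile normalization, against 29.3% and 21% of all genes.

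Markers of other cells differed between the sorted groups. Basophil markers (6 listed) summed to 116 to 200.4 FPKM in DTR cells and 536 to 841 FPKM in Cre cells, T and innate lymphoid markers (5 in the table) to 4.75 to 8.77 FPKM and 247 to 389.7 FPKM, and macrophage markers (6 listed) to 6.82 to 17.4 FPKM and 41.3 to 51.2 FPKM, DTR before Cre in each. A single gene carried the lymphoid sum: Cd7 averaged 0.0314 FPKM in DTR cells and 306 FPKM in Cre cells. The T cell receptor chains Cd3e and Cd3d averaged 0.0315 and 0.0171 FPKM in DTR cells and 0.194 and 0.783 FPKM in Cre cells. By limma 4 of 6 basophil markers and 3 of 5 tested macrophage markers were lower in DTR cells, and 0 were higher. Mcpt8 was the largest part of the basophil sum in Cre cells (343 FPKM on average, 2.11 FPKM in DTR cells). Prss34 averaged 42.7 FPKM in Cre cells and 0.786 FPKM in DTR cells. Cd200r3 carried the basophil sum in DTR cells (144 FPKM on average, 251 FPKM in Cre cells). Cd200r3 also averaged 235 to 582 FPKM in the cultured mast cell groups. Mcpt8 averaged 2.71 to 8.03 FPKM there, and Prss34 11.1 to 778 FPKM. Ccr2 was the largest part of the macrophage sum in Cre cells (26.8 FPKM on average, 0.0426 FPKM in DTR cells). Cd68 and Il3ra averaged higher in DTR cells. Fibroblast markers summed to 1.98 to 126 FPKM in DTR cells and 1.64 to 379.6 FPKM in Cre cells, and 0 of the 5 tested were called. Red blood cell markers summed to 0.0134 to 0.440 FPKM in DTR cells and 0 to 664 FPKM in Cre cells, and 0 were tested. The part of all these other cells in the differences of Canx, Tram1, Xbp1 and the other called members was not tested. Among 79 further pathway genes 16 rose and 8 fell, with 6 of 15 COPII and cargo receptor genes up, such as Sec24d at 7.06 ± 1.11 FPKM in DTR cells and 2.98 ± 0.504 FPKM in Cre cells (SD, n = 4 each), and Os9, a lectin of ER-associated degradation, down by 1.37.

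In whole skin after ablation, 5 members rose and 5 fell, while 7.38% of the 12607 genes tested rose and 6.25% fell. The median member lay 0.02 below the median gene, which was at 0.01. Libraries did not overlap for 5 members above and 8 below, against 11.8% and 9.60% of all genes, and the 28 members without a call changed by -0.14 (Srp14) to 0.11 (Srp68). The 5 that rose were chaperones or an isomerase. Calr had 155, 140.5, 145 and 145 FPKM in DTR skin, against 127, 128, 123 and 127 FPKM in Cre skin (log2 change 0.21, SE 0.0403, limma adjusted p = 0.0110). Hyou1 had 11.7, 11.7, 10.6 and 10.8 FPKM in DTR skin, against 9.13, 8.79, 9.12 and 8.29 FPKM in Cre skin (log2 change 0.31). Pdia4 had 20.8, 20.9, 23.6 and 22.7 FPKM in DTR skin, against 18.9, 18.5, 18.6 and 18.2 FPKM in Cre skin (log2 change 0.23). In these genes all DTR libraries lay above all Cre libraries. Hspa5 had 109, 107, 109.5 and 112 FPKM in DTR skin, against 103, 94.6, 99.2 and 100.4 FPKM in Cre skin (log2 change 0.14, limma adjusted p = 0.0369). Hsp90b1 had 84.3, 81.0, 90.6 and 86.1 FPKM in DTR skin, against 81.1, 75.5, 74.9 and 75.0 FPKM in Cre skin (log2 change 0.16), overlapping through Cre library 1. The calls of Hspa5 and Hsp90b1 were lost after median centring and in 7 of the 8 fits that left out a library, all but the fit without Cre library 1. After median centring 3 members were higher and 6 lower, against 5.74% and 8.16% of all genes.

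The 5 that fell in DTR skin were small entry components and Herpud1. Srp9 had 53.7, 56.9, 56.7 and 55.7 FPKM in DTR skin, against 62.9, 63.8, 62.5 and 69.6 FPKM in Cre skin (log2 change -0.21, SE 0.0439, limma adjusted p = 0.0158). Sec61g had 47.5, 43.5, 48.6 and 44.5 FPKM in DTR skin, against 52.3, 56.1, 50.7 and 58.0 FPKM in Cre skin (log2 change -0.23). Neither overlapped. Ssr4 had 104, 106, 105 and 102 FPKM in DTR skin, against 111, 125, 113 and 129 FPKM in Cre skin, and Spcs1 had 65.0, 66.1, 67.9 and 69.0 FPKM, against 70.1, 77.1, 76.4 and 82.6 FPKM (log2 change -0.19 each). Herpud1 had 40.5, 44.5, 42.8 and 41 FPKM in DTR skin, against 48.8, 45.2, 48.4 and 48.3 FPKM in Cre skin (log2 change -0.17, limma adjusted p = 0.0294). Of these only Srp9 kept its call in every fit that left out a library, as did Calr, Hyou1 and Pdia4 among the risers. Xbp1, Sec61a1 and Sec61b did not pass, at 65.7 ± 3.09, 43.8 ± 1.01 and 96.6 ± 4.52 FPKM in DTR skin and 63.7 ± 1.01, 45.2 ± 0.916 and 103 ± 7.65 FPKM in Cre skin (SD, n = 4 each).

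The risers had a median transcript length of 2399 bases and the fallers 949 bases, and over all genes change and length correlated at 0.255 (Spearman, a description). With the trend in length removed 3 members were higher and 3 lower, against 6.00% and 6.85% of all genes. Markers of other cell types also differed between the groups. Adipocyte markers (6 listed, all lower) summed to 196 to 234 FPKM in DTR skin and 464 to 558 FPKM in Cre skin, and skeletal muscle markers (6 listed, all lower) to 565 to 771 FPKM and 1092 to 2571 FPKM. Mast cell markers (7 tested, all higher) summed to 195 to 239 FPKM in DTR skin and 65.2 to 86.4 FPKM in Cre skin. The part of length or of these cells in the changes of the members was not tested. Of 87 further pathway genes 6 rose and 7 fell.

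The effect of ablation differed between sorted cells and skin for 8 of the 37 members tested in both, by the interaction term over 16 libraries, which called 18% of 8363 genes higher and 16.4% lower. Skin and sorted libraries share 1 estimate of the spread in that fit, although sorted libraries scattered more. The standard error of the difference was therefore below that of the sorted change alone for some genes, as for Srp54a (0.203 and 0.237) and Sec63 (0.198 and 0.231), and the calls nearest the threshold, Srp54a (limma adjusted p = 0.0480) and Sec61b (limma adjusted p = 0.0478), were made with that pooled spread. The difference was positive for Canx (0.81, limma adjusted p = 0.00464), Tram1 (0.94), Spcs3 (0.69) and Srp54a (0.53). It was negative for Xbp1 (-0.88, limma adjusted p = 0.00304), Sec61b (-0.70), Hsp90b1 (-0.68) and Sec63 (-0.61). Xbp1 changed by -0.84 in sorted cells and by 0.04 in skin, and Tram1 by 0.91 and -0.03. Leaving out a library gave 2 to 11 positive and 3 to 6 negative calls, the 11 without library 3 of the sorted DTR cells and the 6 without library 1.

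With β-alanine on the ear no member passed the test. By limma 0 of 38 rose and 0 fell, while 0.0157% of the 12709 genes tested rose and 0.197% fell. At an unadjusted p under 0.05 there were 3 members, all lower (Manf, Creld2 and Calr), and 1247 genes in all. After median centring these shares were 0.0315% and 0.197%, again with 0 members. The median log2 change was -0.08 over the members and -0.04 over all genes, and the standard errors ran from 0.0566 to 0.111, and even Creld2, with a change of -0.26 (SE 0.0836), did not pass (limma adjusted p = 0.370). Calr had 187, 225, 209.7 and 198 FPKM in β-alanine skin, against 229, 231, 248 and 224 FPKM in PBS skin (log2 change -0.18, limma adjusted p = 0.446). Only β-alanine library 2 reached into the PBS range. Hspa5 had 130.5, 121, 110.4 and 109.7 FPKM in β-alanine skin, against 113, 116, 130.0 and 121 FPKM in PBS skin, with full overlap.

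Herpud1 was the one member whose libraries did not overlap, at 59.8, 67.9, 63.5 and 65.8 FPKM in β-alanine skin, against 71.9, 68.6, 68.6 and 70.7 FPKM in PBS skin (log2 change -0.12, limma adjusted p = 0.541), where 5.56% of all genes lay wholly below. Xbp1 had 99.6, 95.7, 83.3 and 79.4 FPKM in β-alanine skin, against 82.3, 93.7, 85.3 and 91.5 FPKM in PBS skin. Hsp90b1 had 106, 101, 95.8 and 86.6 FPKM in β-alanine skin, against 90.8, 102, 108 and 96.3 FPKM in PBS skin. Both overlapped throughout. The entry genes Sec61a1 and Sec61b changed by -0.10 and -0.09, and Pdia4 by -0.13, none beyond the spread of the libraries. In the same libraries mast cell markers summed to 3.21 to 6.64 FPKM in β-alanine skin and 209 to 256 FPKM in PBS skin, with 5 of 7 tested markers lower. Of 87 further pathway genes 0 passed by limma.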

How the data were processed

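The deposited table holds 1 FPKM value per gene and library. The submitters' processing notes name STAR, Cufflinks and the build mm9, without versions. The unit is inferred from those notes and the values. Library type per sample, annotation, any further scaling and strand are not given in the sources used here. Depth is unknown, so no counting interval is given.

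Each treatment was compared with its own controls by limma 3.58.1 (R 4.3.3) on log2(FPKM + 1) with a mean-variance trend, two-sided, over all genes that reached 1 FPKM in 4 or more of the 8 libraries, with Benjamini-Hochberg adjustment over all of them and a threshold of 0.05. The interaction used the 16 DTR and Cre libraries. The procedure was run on simulated data with independent noise and few changed genes. That run cannot speak to comparisons in which most genes were called or libraries fell into pairs. The members and gene lists were chosen with earlier results of these data known.

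Library values are given for up to 6 called members per direction with the lowest p and a mean of at least 5 FPKM, and always for Hspa5, Hsp90b1, Calr, Pdia4, Herpud1, Xbp1, Sec61a1 and Sec61b; up to 3 called genes per further list were named. Markers were listed for mast cells, basophils, keratinocytes, fibroblasts, macrophages, B cells, muscle, fat, red blood cells, T cells, endothelium and sebocytes.

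Promoter windows came from RefSeq (GRCm38.p6), and transcript lengths are medians over protein-coding GENCODE transcripts matched by symbol. Alternatives were other pseudocounts, filters, median centring, quantile normalization, a length correction, no trend, a shared spread, a replicate block and leaving out libraries. Samples were treated as unpaired. Deviations from group means did not correlate above 0.1 in every same-numbered pair, which cannot show that pairing was absent. Between β-alanine and PBS libraries such correlations reached 0.572 for different numbers and 0.374 for the same number, and the test did not use them. Other steps used numpy 2.4.6 and pandas 2.3.3 under Python 3.11.15, and figures used matplotlib 3.10.9.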

Additional observations from a re-analysis of the deposited data

Results flagged for a closer look

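In groups of 4 libraries, 5 member values stood apart from the other 3 by Dixon's criterion, out of 138 member and group combinations checked; chance alone flags about 1 in 20. Pdia6 in glutamate library 4 was at 70.2 FPKM, below the other 3 at 76.7 to 77.7 FPKM. Hsp90b1 in Cre skin library 1 was at 81.1 FPKM, above the others at 74.9 to 75.5 FPKM, and Herpud1 in Cre skin library 2 at 45.2 FPKM, below 48.3 to 48.8 FPKM. In the 48 h vehicle group Syvn1 was at 4.60 FPKM in library 1, above 3.78 to 3.89 FPKM, and Spcs3 at 180.2 FPKM in library 4, below 211 to 214 FPKM.

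The effect of ablation differed between sorted mast cells and skin for 8 of 37 members by the interaction term, which called 34.4% of all genes in either direction. Sorted minus skin, the log2 difference was 0.94 for Tram1, 0.81 for Canx, 0.69 for Spcs3 and 0.53 for Srp54a, and it was -0.88 for Xbp1, -0.70 for Sec61b, -0.68 for Hsp90b1 and -0.61 for Sec63.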

How the results depend on the processing

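Depth is unknown and 4 libraries per group limit every comparison. The changes of named members and the median change of the members were recomputed. Of 835 values under another setting 766 stayed the same, as did 619 of 720 with a library left out. For a named member this means the same direction and side of the threshold. For the median it means a shift smaller than its SD between treated libraries. The cause of the shifts below was not tested.

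For members higher and lower in DTR skin (5 and 5), median centring, a length correction and no trend each left 3 higher, and a spread shared with the other skin groups 2; quantile normalization left 2 lower, and no filter and the length correction 3 each. For sorted cells (3 and 4), median centring gave 9 higher, quantile normalization 14 and the length correction 8, while no filter gave 1 lower and the length correction 9. For glutamate (18 and 12), median centring gave 32 and 4 and the length correction 31 and 5. For the interaction (4 and 4), median centring gave 13 and 8, quantile normalization 17 and 7, the length correction 9 and 10, and a pseudocount of 5 left 2 lower.

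Libraries of the same replicate number are not known to be paired. With a replicate block, members higher and lower were 3 and 2 in DTR skin, 0 and 0 with β-alanine, 3 and 5 in sorted cells, 19 and 13 with glutamate, 9 and 21 with NS102, and 5 and 4 for the interaction.

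With each library left out in turn, members higher ranged from 3 to 5 and lower from 2 to 4 in DTR skin, 2 to 5 (5 without Cre library 4) and 1 to 4 in sorted cells (1 without DTR library 4, 2 without Cre library 2), 17 to 19 and 11 to 14 with glutamate, 9 to 10 and 20 to 21 with NS102, and 2 to 11 and 3 to 6 for the interaction; with β-alanine both stayed 0. Without NS102 libraries 1 and 2 there were 10 and 20, and without 3 and 4, 8 and 20, an alternative chosen after seeing the data.

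Directions that turned were near 0 or hung on scaling. With glutamate Pdia4 (-0.11) became 0.31 after centring, 0.15 after quantile normalization and 0.28 after the length correction, and Sec61a1 (-0.29) became 0.13 after centring and 0.09 after the length correction. With NS102 Xbp1 (-0.29) became 0.01 after quantile normalization, and Herpud1 (0.02) ranged from -0.01 (without vehicle library 4) to 0.05 without single libraries. In sorted cells Calr (-0.02) became 0.09 after quantile normalization and ranged from -0.12 to 0.07 without single libraries. With β-alanine Hspa5 (-0.03) became 0.02 after centring and the length correction, 0.0 after quantile normalization and ranged from -0.08 to 0.01 without single libraries; Hsp90b1 (-0.03) became 0.02 after centring, 0.03 after the length correction and ranged from -0.07 to 0.03 without single libraries; without single libraries Xbp1 (0.02) ranged from -0.04 to 0.07 and Sec61b (-0.09) ranged from -0.13 to 0.01.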
